A study of Caenorhabditis elegans with 6 samples.

Results

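The 10 transcription factors mec-3, unc-86, alr-1, egl-44, egl-46, pag-3, egl-5, lin-39, mab-5 and php-3, which set or restrict touch neuron fate and subtype, were read in gene counts from sorted C. elegans touch neurons. They were taken by symbol, and all 10 were matched to a single identifier each among the 46726 genes counted. Touch neurons sense gentle touch to the body. The libraries came from L4 larvae sorted for GFP driven by the mec-4 promoter (transgene zdIs5, as the methods name it), in 3 wild-type samples and in 3 samples of mutants with the mec-8(e398) allele, a lesion in a splicing regulator that touch neurons need. Where the values of a genotype are listed, they follow the order of replicates 1, 2 and 3. GEO lists the strain of the wild-type libraries as N2, without the transgene that the sort needs. Each library pools cells from many animals. The gate rests on mec-4, a gene that UNC-86 and MEC-3 switch on.

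Touch neuron identity is set by a pair of homeodomain proteins. UNC-86, a POU factor found in many neurons, starts the expression of mec-3, and the LIM homeodomain protein MEC-3 then binds with UNC-86 at its own promoter and at those of the touch genes, which encode the channel, the microtubules and other parts of the touch apparatus. Other factors limit this programme to the right cells or divide the touch neurons into anterior and posterior subtypes, among them the Hox proteins. The comparison asked whether loss of MEC-8 moved the level of any of these regulators. Whole-gene counts do not show their isoforms.

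Depth was between 15334872 and 33094142 reads on genes per library, and levels are in CPM, the count of a gene in every 1000000 reads on genes. A count of 3, the floor used here, equals 0.0907 to 0.196 CPM. The mutated gene, mec-8, had 8.64 to 35.3 CPM in wild type and 2.60 to 23.4 CPM in the mutant libraries (log2 fold change -0.52, standard error 1.13, edgeR adjusted p = 1). The lesion itself cannot be seen in these counts. Wild-type replicate 1 stood apart in its mapping, with 70024247 alignments that were not unique against 1922629 to 11988379 in the other libraries. The libraries differed widely within a genotype. Across genes, which are not independent replicates, log2 levels correlated at 0.604 to 0.654 within wild type, at 0.66 to 0.781 within mec-8 and at 0.368 to 0.847 between genotypes. All 9 touch genes listed (mec-1, mec-4, mec-7, mec-10, mec-12, mec-14, mec-17, mec-18 and mtd-1) had counts in every library. Their summed level was 1611 to 14627 CPM in wild type and 1017 to 11341 CPM in mec-8. Markers of other cells were present too. The sum of 5 muscle genes was 2738 to 46271 CPM in wild type and 1831 to 28657 CPM in mec-8, with 2 of the genes (unc-120 and hlh-1) at 0 in mec-8 replicate 3. The sum of 5 hypodermal genes was 19.8 to 515 CPM in wild type and 6.43 to 209 CPM in mec-8, and 3 of the 5 were at 0 in both wild-type replicate 1 and mec-8 replicate 3. For 5 intestinal genes the sums were 78.7 to 725 CPM and 679 to 2786 CPM, for 3 germline genes 897 to 3374 CPM and 577 to 2657 CPM, and for 5 motor neuron genes 57.0 to 340.0 CPM and 103 to 260 CPM, wild type first in each. The part that these cells play in the levels below was not tested, and in such bulk samples fewer cells of a type cannot be told apart from less RNA per cell.

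**Figure D1:**
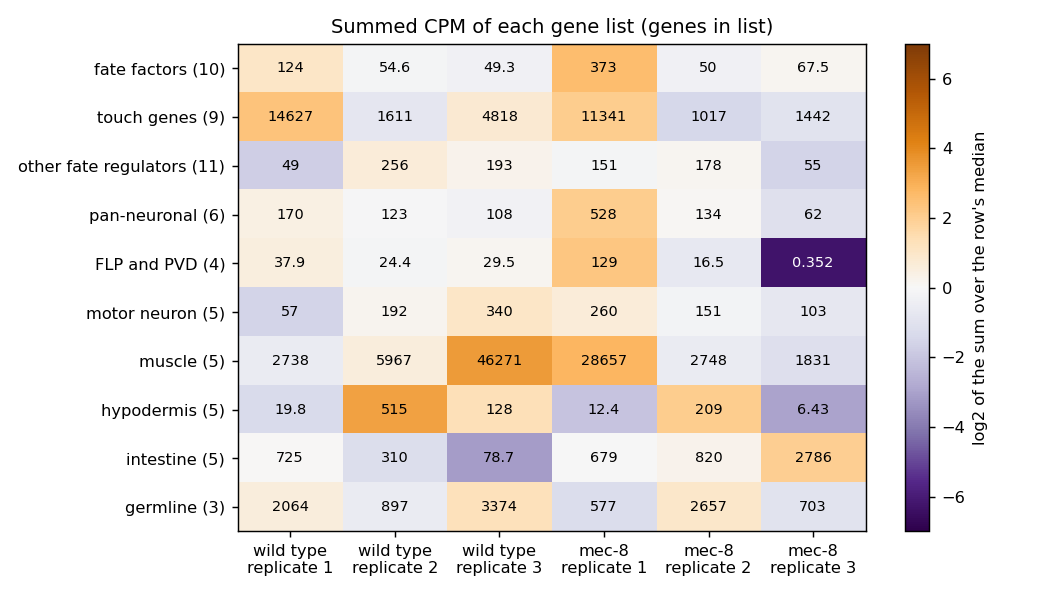
Summed CPM of each gene list (rows, with the number of genes) in the 6 libraries (columns), printed in each cell. Colour gives the log2 of the sum over the row's median, with orange above and purple below it. The fate factors, the pan-neuronal genes and the FLP and PVD genes all have their highest sum in mec-8 replicate 1.

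The 10 genes are protein-coding and lie on chromosomes II, III, IV, V and X of WBcel235. No exon of another annotated gene falls on an exon of any of them, while noncoding RNA genes overlap the span of 7 of the 10 outside their exons. The gene mec-3 spans 10458816 to 10461867 on the minus strand of chromosome IV. The gene unc-86 spans 8212740 to 8216336 on the minus strand of chromosome III. On the X chromosome, alr-1 spans 11121871 to 11125620 and pag-3 spans 14950752 to 14954648, both on the minus strand. The gene egl-44 lies at 5928802 to 5940830 on the plus strand of chromosome II and has 13 annotated transcripts, while egl-46 lies at 6679123 to 6681573 on the minus strand of chromosome V and has 1. Of the Hox genes on chromosome III, lin-39 (7528641 to 7536632, minus strand), mab-5 (7776835 to 7783454, minus strand) and egl-5 (7814374 to 7817141, plus strand) follow each other, with 240202 bases between lin-39 and mab-5 and 30919 bases between mab-5 and egl-5. The posterior Hox gene php-3 (12074218 to 12077556, minus strand) is separated from its relative nob-1 by 236 bases.

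In the wild-type libraries mec-3 and unc-86 had the highest mean levels per length among the 10. In CPM per kilobase of exon (CPM per kb), mec-3 stood at 25.7 ± 28.8 (SD, n = 3), unc-86 at 11.6 ± 6.79 (SD, n = 3) and egl-44 at 5.64 ± 4.91 (SD, n = 3). The Hox genes lin-39 and mab-5 followed at 3.47 ± 1.55 and 2.42 ± 1.13 CPM per kb. The remaining factors were lower, from 1.04 ± 0.904 CPM per kb for egl-46 down to 0.0726 ± 0.0683 for pag-3. The mec-3 mean rested on replicate 1, at 58.8 CPM per kb against 6.77 and 11.6 in replicates 2 and 3. In wild-type replicate 2 egl-44 was the highest factor, at 11.3 CPM per kb against 6.10 for unc-86. Of all 6 libraries, mec-3 was the highest factor per kb in 3, and mec-3 and unc-86 were the highest 2 in 4. By the median of the 6 libraries the order was mec-3, unc-86, egl-44, lin-39, mab-5, alr-1, egl-46, php-3, egl-5 and pag-3. No neighbours in this order differed beyond their spread, since the mean log2 ratio of each to the next, with 0.5 CPM added, was smaller in size than its SD over the 6 libraries. Averaged over all libraries, mec-3 stood at percentile 82.7 of the tested genes by CPM per kb and unc-86 at 67.1, against 22.9 for alr-1 and 0.393 for pag-3. A single library, mec-8 replicate 1, held 66.52% of the mec-3 counts and 61.45% of the unc-86 counts, so these averages lean on it. Of the 10 factors, 5 had at least 3 counts in every library.

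**Figure D2:**
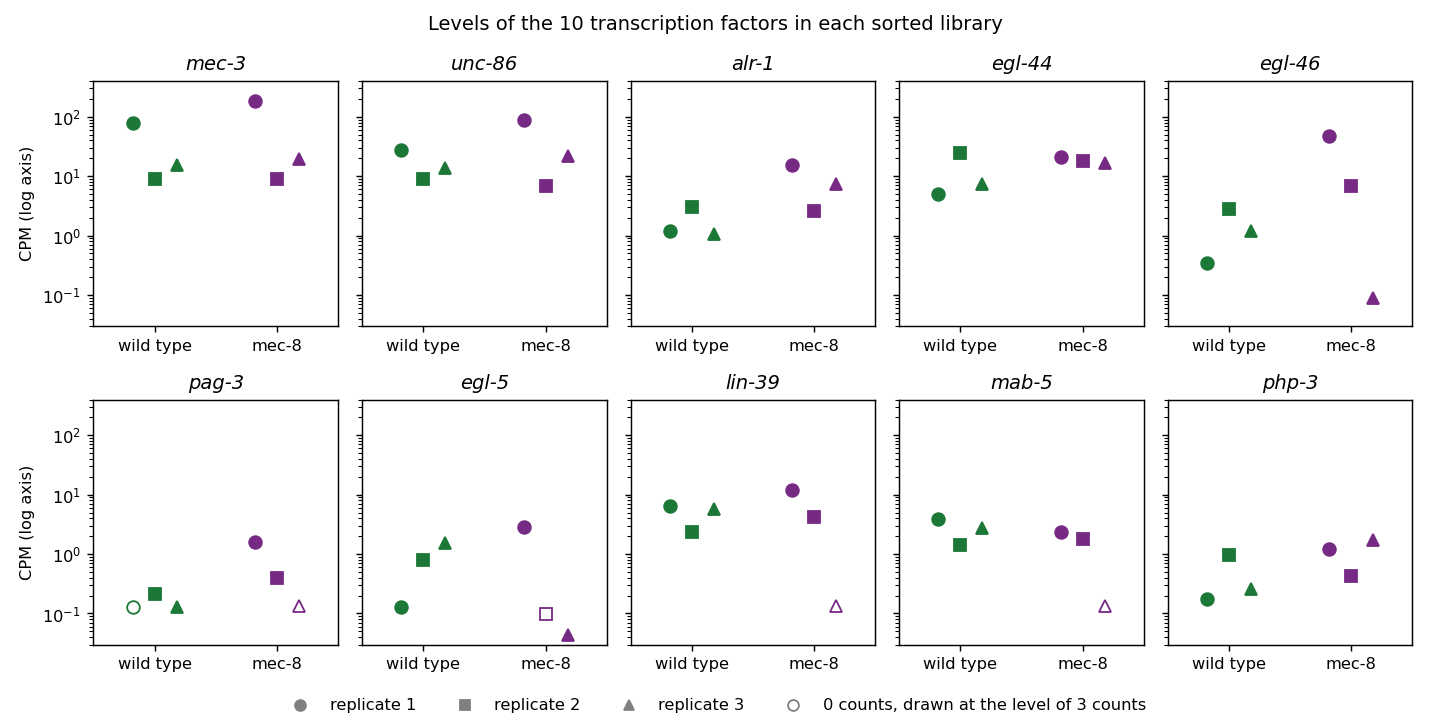
CPM on a log axis for each of the 10 factors, with 1 point per library, wild type on the left and mec-8 on the right of each panel. Open symbols are libraries with 0 counts, drawn at the level of 3 counts. For mec-3 and unc-86 replicate 1 is the highest library in both genotypes, and mec-8 replicate 3 has 0 counts of lin-39, mab-5 and pag-3.

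Wild type held 1826, 253 and 238 counts of mec-3, equal to 78.8, 9.07 and 15.5 CPM. The mutants held 6015, 266 and 445 counts of it, equal to 182, 8.80 and 19.6 CPM. Replicate 1 was the high library in each genotype, and the other libraries of the genotypes overlapped. The highest library was 20.7-fold above the lowest, which is wider than the difference between the genotype means of 34.5 ± 38.6 CPM in wild type and 70.1 ± 96.9 CPM in mec-8 (SD, n = 3). The log2 fold change of mec-8 over wild type was 1.31 (95% interval -1.94 to 4.55, edgeR adjusted p = 1). Without mec-8 replicate 1 it was -1.37, and without wild-type replicate 1, the library that stood apart in its mapping, it was 2.57.

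For unc-86 the levels were 27.9, 8.89 and 13.7 CPM in wild type, against 87.0, 6.81 and 21.8 CPM in the mutants. The libraries came in the same order as for mec-3, from mec-8 replicate 1 down to mec-8 replicate 2. The mean was 16.8 ± 9.90 CPM in wild type and 38.5 ± 42.6 CPM in mec-8 (SD, n = 3). The difference on the log2 scale was 1.41 (95% interval -1.22 to 4.04, edgeR adjusted p = 1). It was -0.32 without mec-8 replicate 1, the library that held 61.5% of all unc-86 counts, and 1.83 without wild-type replicate 1. The ratio of mec-3 to unc-86 counts was 2.82, 1.02 and 1.13 in wild type, against 2.09, 1.29 and 0.899 in the mutants. This ratio was above 2 in replicate 1 of each genotype and between 0.899 and 1.29 in the other 4 libraries.

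The aristaless-type homeodomain factor ALR-1 supports the expression of mec-3 in touch neurons. The gene alr-1 stood at 1.21, 3.08 and 1.04 CPM in wild type, against 15.7, 2.61 and 7.31 CPM in the mutants. All mec-8 libraries but replicate 2 were above every wild-type library. Between genotypes the log2 fold change was 2.54 (95% interval -0.22 to 5.30, edgeR unadjusted p = 0.0664 and adjusted p = 1), the smallest unadjusted p of the tested factors, and without mec-8 replicate 1 it was 1.40. At least 10 counts in every library left 8391 genes for the test, and alr-1 then had an unadjusted p of 0.0245 and an adjusted p of 0.635 in edgeR, where 6.76% of genes had an unadjusted p under 0.05.

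Relative to the touch genes of the same library, mec-3 and unc-86 were higher on average in mec-8. The exact permutation test of 3 against 3 libraries could not have put any difference under 0.05, so it cannot decide whether these differ. The measure is the log2 level, log2(CPM + 0.5), minus the mean of the 9 touch genes. For mec-3 it was -1.84, -2.73 and -2.96 in wild type, against -0.996, -2.16 and -1.58 in the mutants. The libraries of the genotypes overlapped, with a difference of 0.93 (exact two-sided permutation test, p = 0.2). For unc-86 it was -3.32, -2.76 and -3.14 in wild type, against -2.06, -2.51 and -1.43 in the mutants. All mec-8 libraries were above all wild-type libraries, with a difference of 1.07 (exact two-sided permutation test, p = 0.1, the smallest that 3 against 3 can give). Of all tested genes, 4.54% separated in this direction on the same measure and 0.0753% in the other. The median over all tested genes was 0.46 higher in mec-8, and the touch genes themselves averaged 7.04 on the log2 scale in wild type and 6.60 in mec-8.

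The levels of mec-3 and unc-86 varied between libraries much as some touch genes did. Likeness was measured as the SD over the 6 libraries of the log2 ratio to mec-3, which was 2.27 for the median tested gene. It was smallest for pes-23 (0.395), mec-4 (0.431) and C39B5.5 (0.638), and unc-86 was in rank 4 (0.64). The gene mec-4, a subunit of the touch channel whose promoter also drives the GFP of the sort, stood at 77.7, 21.0 and 16.0 CPM in wild type, against 232, 13.3 and 28.5 CPM in the mutants. The level of pes-23 was below 5 CPM in every library and at 0 in wild-type replicate 2, so that its ratio rests in part on the 0.5 added before the logarithm. For the 9 touch genes, from mec-4 to mec-14, between 0.00684% and 6.58% of tested genes were closer to mec-3.

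For unc-86 the closest genes were unc-24 (0.309), Y34D9A.8 (0.353) and F45E1.1 (0.372), against 1.92 for the median gene. F45E1.1 was at 0 in mec-8 replicate 2, so that its ratio also rests in part on the 0.5 CPM added. The stomatin-like gene unc-24 stood at 25.9, 9.79 and 17.5 CPM in wild type, against 139.5, 9.49 and 20.7 CPM in the mutants. The channel subunit mec-10 was in rank 7 (0.475) and mec-4 in rank 12 (0.527), while mec-12 was in rank 3693 (1.60). The gene mec-12, an alpha tubulin abundant in touch neurons, thus varied less like unc-86 than mec-10 did. These are descriptions over 6 libraries in which all the genes compared share the same depth and the same mix of cells.

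**Figure D3:**
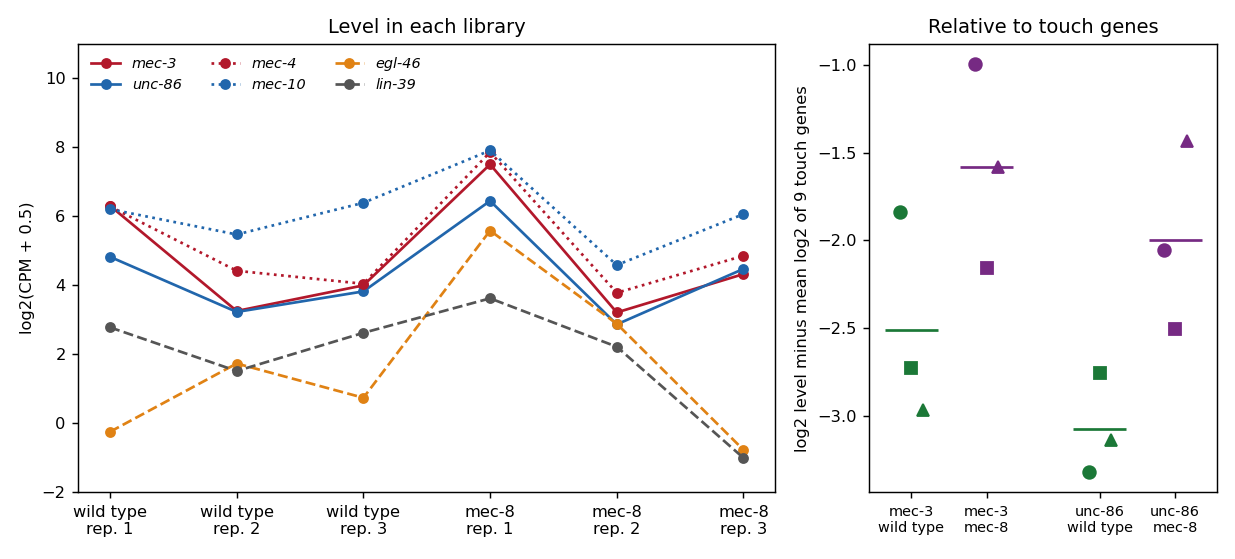
Left, log2(CPM + 0.5) of mec-3, unc-86, mec-4, mec-10, egl-46 and lin-39 in each library, where lines join the values of a gene and stand for no order of the libraries. Right, the log2 level of mec-3 and unc-86 minus the mean log2 of the 9 touch genes, wild type in green and mec-8 in purple, replicates 1, 2 and 3 as circle, square and triangle, with bars at the means. The unc-86 points of the genotypes do not overlap, at -3.32 to -2.76 in wild type and -2.51 to -1.43 in mec-8.

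EGL-44, of the TEAD family, and the zinc finger protein EGL-46 act together to keep the touch programme off in FLP, a neuron of the head that also uses MEC-3. Their genes were highest in different libraries. The gene egl-44 stood at 4.97, 24.9 and 7.499 CPM in wild type, against 20.7, 18.1 and 16.96 CPM in the mutants. Wild type held both the lowest and the highest library, and the mec-8 libraries were close to each other. The log2 fold change of egl-44 was 0.73 (95% interval -1.26 to 2.72, edgeR adjusted p = 1). It was 0.27 without mec-8 replicate 1 and 1.43 without wild-type replicate 2. The summed hypodermal genes stood at 19.8, 515 and 128 CPM in wild type, against 12.36, 209 and 6.43 CPM in the mutants. They shared their highest library with egl-44 and were low in mec-8 replicates 1 and 3, where egl-44 was not. The part of hypodermal cells in the egl-44 level was not tested.

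For egl-46, wild type gave 8, 79 and 18 counts, equal to 0.345, 2.83 and 1.17 CPM. The mutants gave 1577, 209 and 2 counts, equal to 47.7, 6.91 and 0.0881 CPM. The mutant genotype held the highest library, and mec-8 replicate 1 alone held 83.3% of all egl-46 counts. The exact Clopper-Pearson interval at 95%, which covers counting error only, was 45.3 to 50.1 CPM in mec-8 replicate 1 and 6.01 to 7.92 CPM in mec-8 replicate 2. In mec-8 replicate 3, below the floor of 3 counts, it was 0.0107 to 0.318 CPM. This overlaps with 0.149 to 0.681 CPM in wild-type replicate 1, so that these libraries cannot be put in order. For egl-46 the log2 fold change was 3.91 (95% interval -0.65 to 8.46, edgeR unadjusted p = 0.0824 and adjusted p = 1). Without mec-8 replicate 1 it was 0.73.

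Genes used as markers of FLP and PVD, sensory neurons that also depend on mec-3, had their highest sum in the same library, and deg-3 was an exception among them. The sum of des-2, deg-3, dma-1 and F49H12.4 was 24.4 to 37.9 CPM in wild type, against 129, 16.5 and 0.352 CPM in the mutants. The acetylcholine receptor genes des-2 and deg-3 are also known from touch neurons, and deg-3 stood at 22.5, 5.74 and 6.13 CPM in wild type, against 13.02, 1.62 and 0.044 CPM in the mutants. The dendrite receptor gene dma-1 of PVD had 96.0 CPM in mec-8 replicate 1, 8.40 CPM in mec-8 replicate 2 and 0 in mec-8 replicate 3, against 10.3 to 13.4 CPM in wild type. F49H12.4, a marker of PVD, stayed at 0.514 CPM or below in all 6 libraries. The sum of 6 pan-neuronal genes was 108 to 170.1 CPM in wild type, against 528, 134 and 62.01 CPM in the mutants. Of the 528 CPM in mec-8 replicate 1, 299 CPM came from unc-104 alone. All but snb-1 were highest in that library. There snb-1 stood at 24.7 CPM, against 42.9, 35.0 and 9.52 CPM in wild type. The part of other neurons in the egl-46 level was not tested. The ratio of egl-44 to egl-46 counts ran from 0.434 in mec-8 replicate 1 to 192.5 in mec-8 replicate 3. The upper value rests on 2 counts of egl-46, below the floor of 3, and is not a measured ratio. The SD of the log2 ratio of egl-44 to egl-46, 2.01, compares with a median of 2.58 for all tested genes against egl-46.

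PAG-3, a zinc finger protein of the Gfi family, keeps touch genes off in the BDU neurons, the sisters of the ALM touch neurons. It was the least abundant of the 10 factors per length. Its counts were 0, 6 and 2 in wild type, against 53, 12 and 0 in the mutants. The 53 counts of mec-8 replicate 1 stand for 1.60 CPM, with an exact Clopper-Pearson interval of 1.20 to 2.10 CPM, and for the 0 counts in 1 library of each genotype the floor of 3 counts sets a limit of 0.13 and 0.132 CPM. Its counts did not pass the filter on low values, so it was not tested in the comparison of genotypes. Without that filter its log2 fold change was 2.62 (standard error 2.88, edgeR adjusted p = 0.815).

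The Hox factors LIN-39 and MAB-5 act in the middle and the posterior part of the body, and both direct the migration of the Q neuroblasts that give rise to the AVM and PVM touch neurons. Levels of lin-39 were 6.39, 2.37 and 5.67 CPM in wild type, against 11.8, 4.17 and 0 in the mutants. Levels of mab-5 were 3.89, 1.40 and 2.74 CPM in wild type, against 2.39, 1.79 and 0 in the mutants. Both genes were read in 5 of the 6 libraries, and mec-8 replicate 3 had 0 counts of each among 22705762 reads, for which the floor of 3 counts sets a limit of 0.132 CPM. In that library the FLP and PVD list had 2 of its 4 genes at 0, and mec-3 and unc-86 had 445 and 495 counts. Fitted log2 fold changes were 0.21 for lin-39 (95% interval -3.99 to 4.41, edgeR adjusted p = 1) and -0.95 for mab-5 (95% interval -5.02 to 3.12, edgeR adjusted p = 1). Without mec-8 replicate 1 that of lin-39 was -1.78 and that of mab-5 was -2.13. Without mec-8 replicate 3 they were 0.83 and -0.36. Between the 2 genes the SD of the log2 ratio was 0.695, and 0.472% of tested genes were closer to lin-39 than mab-5 was. The shared 0 in mec-8 replicate 3 enters this value.

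EGL-5 and PHP-3 are posterior Hox factors of the Abdominal-B type, and egl-5 sets the posterior touch neurons PLM apart from the anterior ALM. The counts of egl-5 were 3, 22 and 24 in wild type, against 95, 0 and 1 in the mutants. In CPM, wild type stood at 0.13, 0.789 and 1.57 and the mutants at 2.87, 0 and 0.044, where the floor of 3 counts sets a limit of 0.0992 CPM for the 0 counts in replicate 2. Wild-type replicate 1 was at the floor of 3 counts and mec-8 replicates 2 and 3 were below it, so that these libraries cannot be put in order. The log2 fold change of egl-5 was 0.35 (95% interval -4.85 to 5.55, edgeR adjusted p = 1). Without mec-8 replicate 1 it was -5.16, a value that rests on 1 count in the remaining mec-8 libraries.

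The counts of php-3 were 4, 27 and 4 in wild type, equal to 0.173, 0.968 and 0.261 CPM, against 40, 13 and 39 in the mutants, equal to 1.21, 0.43 and 1.72 CPM. The mec-8 libraries were all above wild-type replicates 1 and 3 and overlapped with replicate 2. Between genotypes the log2 fold change was 1.502 (95% interval -1.86 to 4.87, edgeR adjusted p = 1), and without wild-type replicate 2 it was 2.30. Its neighbour nob-1, the other posterior Hox gene of the pair, had 1.43 to 3.41 CPM in wild type and 1.67 to 7.41 CPM in mec-8. Among the factors, php-3 varied most like egl-44, with an SD of the log2 ratio of 0.556 and 1.53% of tested genes closer to it. Since php-3 was at 1.72 CPM or below in every library, this SD rests in part on the 0.5 CPM added before the logarithm. The 4 Hox genes together had 10.6, 5.52 and 10.2 CPM in wild type, against 18.3, 6.38 and 1.76 CPM in the mutants.

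Across the 10 factors, 9 passed the filter on low values and 0 of these 9 had an adjusted p under 0.05 in edgeR's quasi-likelihood test, and 0% of the 14614 genes tested did. At an unadjusted p under 0.05 there were 0 of the 9, against 3.22% of all genes. DESeq2, run on the same counts, had 44 genes at an adjusted p under 0.05 (0.278% of those given one), 0 of them among the 10 factors. At an unadjusted p under 0.05 in DESeq2 there were 2 of the 10 factors, egl-46 (0.0257) and alr-1 (0.0259), against 4.92% of all genes. None of the 9 had libraries that separated the genotypes, while 6.99% of all tested genes did, 5.5% with every mutant library higher and 1.49% with every mutant library lower. The log2 fold change was above 0 for 8 of the 9, with a median of 1.31, against 50.5% of all genes and a median of 0.01. This count rested on mec-8 replicate 1, which was the highest of the 6 libraries for 6 of the 9 tested factors and for 20.3% of all tested genes. Without it 4 of 9 were above 0, with a median of -0.32, against 38% of all genes and a median of -0.31. The other marker lists moved in both directions. The log2 fold change was above 0 for 5 of the 6 pan-neuronal genes (median 1.23), and all of the 6 but snb-1 were highest in mec-8 replicate 1. For the intestinal genes it was above 0 in 5 of 5 (median 3.05). Of these, 3 had every mutant library higher and 2 an unadjusted p under 0.05 in edgeR. The log2 fold change was above 0 for 1 of the 5 muscle genes (median -1.70), 0 of the 5 hypodermal genes (median -1.76) and 0 of the 3 germline genes (median -0.69). For the motor neuron genes it was above 0 in 3 of 5 (median 0.04) and for the FLP and PVD genes in 2 of the 3 tested (median 0.29). None of these genes had an adjusted p under 0.05 in edgeR.

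**Figure D4:**
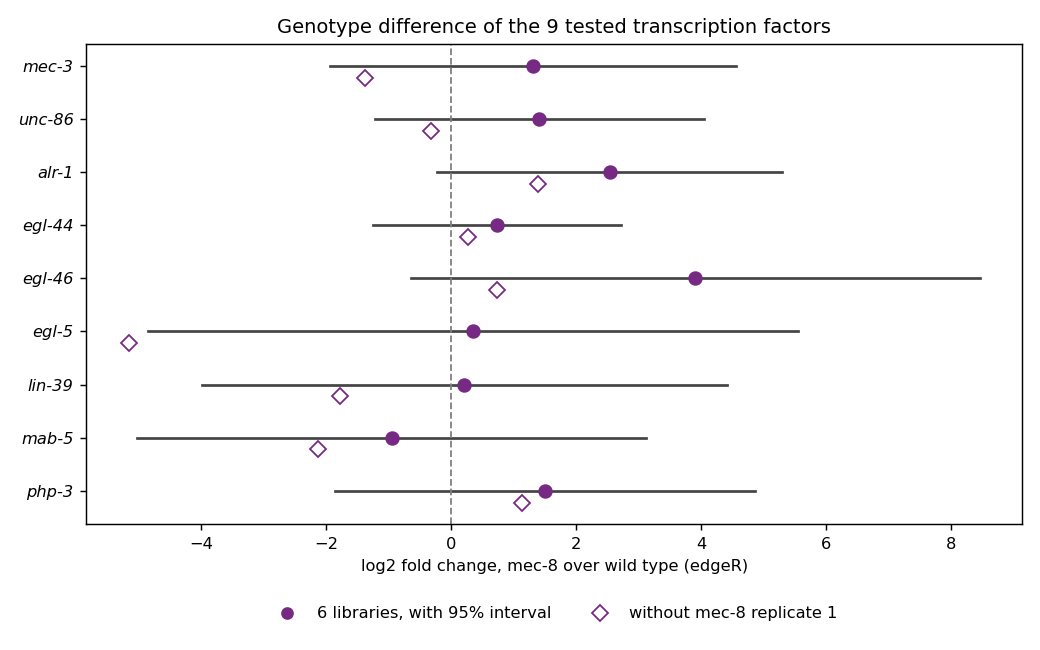
Log2 fold change of mec-8 over wild type for the 9 tested factors (filled circles, edgeR, bars are 95% intervals) and the value without mec-8 replicate 1 (open diamonds). All 9 intervals include 0, and the values of mec-3, unc-86, egl-5 and lin-39 change sign without that library.

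Other regulators known from touch neurons or as partners of these factors showed no called difference in whole-gene counts either. Of 11 listed, 8 were tested, 5 had a log2 fold change above 0 and 3 below it, with a median of 0.47, and 0 had an adjusted p under 0.05 in edgeR. The values ran from -1.58 for ceh-13, the anterior Hox gene, to 1.77 for ahr-1, the aryl hydrocarbon receptor gene, and 0 had an unadjusted p under 0.05. The Hox partner gene unc-62, of the Meis type, had 24.4 to 157 CPM in wild type and 33.7 to 109 CPM in mec-8. The paper places unc-62 among the genes whose splicing MEC-8 regulates in touch neurons, which whole-gene counts do not show. The spalt-type zinc finger gene sem-4 had 1.99 to 35.7 CPM in wild type and 5.68 to 20.2 CPM in mec-8. For ldb-1, which encodes the cofactor that binds LIM homeodomain proteins, the range was 6.87 to 38.5 CPM in wild type and 4.67 to 58.0 CPM in mec-8. The ZEB-type gene zag-1 had 4.66 to 6.65 CPM in wild type, against 13.1, 9.36 and 0.0881 CPM in the mutants. The early factors lin-32 and vab-15 were scarce in these libraries. The proneural gene lin-32 had 0.893 CPM or less in each library and the Msx-type homeobox gene vab-15 had 0.196 CPM or less. Of the 9 touch genes themselves, 4 had a log2 fold change above 0 and 5 below it, with a median of -0.20, from -0.99 for mec-7, a beta tubulin gene, to 2.65 for mec-14, and 0 had a p under 0.05 in edgeR, adjusted or unadjusted.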

How the data were processed

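RNA of GFP-positive cells was sequenced in 6 libraries. Per the paper's methods and the submitters' processing notes, the authors aligned paired reads to WBcel235 with STAR, counted them per gene with HTSeq and deposited raw counts without normalization. The strand setting and annotation of the counting are not given in the sources used here. Reads on no gene made up 0.385% to 3.57% and reads on more than 1 gene 2.62% to 11.1% of the uniquely mapped reads, both highest in wild-type replicate 1, and they were left out. Symbols were matched to 43623 of 46726 identifiers, and Ensembl release 115 gave coordinates and exon lengths.

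Genotypes were compared with edgeR 4.0.16 in R 4.3.3 (quasi-likelihood test, TMM, filterByExpr, Benjamini-Hochberg adjustment over 14614 genes, threshold 0.05). Standard errors were back-calculated from the log2 fold change and its F statistic. Ratios to the touch genes were tested by exact permutation in scipy 1.17.1. Alternatives were DESeq2 1.42.0, 2 other normalizations, 2 other filters, a replicate block, other ratio settings, and each library left out. The code of the fit was checked on simulated counts with less spread than these libraries, which says nothing of its power here. By rule, all 10 factors are named, with the 3 genes most like mec-3 and unc-86 and the closest to each other tested factor. The factors and lists (touch genes, other regulators, pan-neuronal, FLP and PVD, motor neuron, muscle, hypodermis, intestine, germline) were chosen with earlier results of these data known. Replicates are separate biological experiments. Comparisons of promoter and protein sequences were not run.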

Additional observations from a re-analysis of the deposited data

How the results depend on the processing

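Precision was limited by the spread between libraries of a genotype, with a square root of edgeR's common dispersion of 1.20. The count of factors past the threshold stayed at 0 under every alternative run, and the smallest adjusted p of any factor was 0.548, in DESeq2. The count over all genes was 0 in edgeR under every alternative, and in DESeq2 it was 44 (31 higher and 13 lower in mec-8). Upper-quartile normalization turned lin-39 to -0.0026. With libraries left out in turn, the log2 fold change ran from -1.37 to 2.57 for mec-3, from -0.32 to 1.95 for unc-86, from -5.16 to 1.60 for egl-5 and from -1.78 to 0.83 for lin-39, while it kept its sign for alr-1 (1.40 to 2.97), egl-44 (0.27 to 1.43), egl-46 (0.73 to 4.51), mab-5 (-2.13 to -0.36) and php-3 (1.01 to 2.30). The cause was not tested. Requiring 10 counts in every library left 4 of the factors to test. The genotype differences of mec-3 and unc-86 relative to the touch genes stayed above 0 in every setting run. In the main setting the median over all tested genes was itself 0.46 higher in mec-8 on this measure.

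Same-numbered libraries correlated in their deviations at 0.0409, 0.501 and -0.22 for replicates 1, 2 and 3. Wild-type replicate 2 matched mec-8 replicate 2 best, while wild-type replicates 1 and 3 matched mec-8 replicates 3 and 1 best. With 3 libraries per genotype, these values cannot show whether the numbers mark a shared batch. With the replicate number as a block, egl-5 was -3.77, lin-39 -0.59, mab-5 -1.55, mec-3 0.52, unc-86 0.66 and egl-46 1.31, and 240 genes had an unadjusted p under 0.05 against 470 without it, with 0 past the adjusted threshold.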

Other observations

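By the same measure of likeness, the SD of the log2 ratio over the 6 libraries, the closest gene to each other tested factor was C37C3.10 for alr-1 (0.133), F16B4.5 for egl-44 (0.107), fbxa-154 for egl-46 (0.458), glo-4 for egl-5 (0.309), C06B3.7 for lin-39 (0.186), cand-1 for mab-5 (0.256) and ccch-1 for php-3 (0.168). None of these 7 is a touch gene or another of the 10 factors. The gene fbxa-154 shared the uneven level of egl-46, with 30.5 CPM in mec-8 replicate 1, 2.15 in mec-8 replicate 2 and 0 in mec-8 replicate 3, against 0 to 1.72 CPM in wild type. C37C3.10, F16B4.5 and fbxa-154 were at 0 in wild-type replicate 1, and fbxa-154 and C06B3.7 were at 0 in mec-8 replicate 3. Their SDs thus rest in part on the 0.5 CPM added before the logarithm. Each match is the closest of 14613 genes over 6 libraries and is given as a value only.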
